A study of Mus musculus with 9 samples.

Results

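Breakdown of the branched-chain amino acids leucine, isoleucine and valine was followed in mouse muscle through 10 genes chosen by symbol: Bcat2, Bckdha, Bckdhb, Dbt, Bckdk, Ivd, Mccc1, Mccc2, Auh and Hibadh. All 10 were present among the 23231 genes of the table, and all 10 were among the 10794 tested at a mean of at least 1 FPKM. FPKM is a count of fragments scaled to library depth and to the length counted for the gene. Levels set side by side between genes therefore rest on that length as well. Mccc2 (ENSMUSG00000021646) was picked because its level differed with construct 5, and the other 9 genes were chosen for their place in the pathway. Member values in construct 5 against the controls are therefore given as a description.

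The libraries came from tibialis anterior muscle, a fast muscle of the lower leg, of C57BL/6 mice aged 6 months. Muscles labelled UBR4_siRNA5 or UBR4_siRNA7 (construct 5 and construct 7, 3 libraries each) had received 1 of 2 siRNAs against Ubr4, a ubiquitin ligase, and those labelled NT_siRNA a non-targeting control siRNA (3 libraries), in every case by electroporation. All 9 muscles thus shared strain, age and electroporation, and no muscle without siRNA was among them. Total RNA of the whole muscle was sequenced, so fewer cells of a type and less RNA per cell cannot be told apart. The share of fibres that took up siRNA was not analysed here.

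Skeletal muscle is a main site where these amino acids lose their amino group, because the liver has little of the mitochondrial aminotransferase. The ketoacids that result are oxidised by the branched-chain ketoacid dehydrogenase complex, the committed step, which a kinase switches off and a phosphatase switches on. Beyond it the 3 chains diverge, and leucine alone passes through methylcrotonyl-CoA carboxylase, a biotin enzyme of the mitochondrial matrix built from the alpha subunit Mccc1 and the beta subunit Mccc2.

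The promoter windows of 3 genes are shown because Bckdk was the member whose levels over the libraries were most like those of Mccc2, and because Mccc1 codes for the partner subunit of Mccc2. Each window is a RefSeq sequence on GRCm38.p6 of 300 bases, 250 before the annotated start and 50 after it, written 5′ to 3′ on the gene's strand, with matches to any of 5 searched motifs in capitals. The Mccc2 window is chr13:100015590-100015889 on the minus strand, that of Bckdk is chr7:127903823-127904122 on the plus strand, and that of Mccc1 is chr3:36000629-36000928 on the minus strand.
Mccc2: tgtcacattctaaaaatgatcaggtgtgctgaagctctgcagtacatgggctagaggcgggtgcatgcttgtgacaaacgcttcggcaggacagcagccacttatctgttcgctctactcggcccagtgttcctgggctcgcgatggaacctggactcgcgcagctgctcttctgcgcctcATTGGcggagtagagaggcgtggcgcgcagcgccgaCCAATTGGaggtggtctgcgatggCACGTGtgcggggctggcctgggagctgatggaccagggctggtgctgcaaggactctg
Bckdk: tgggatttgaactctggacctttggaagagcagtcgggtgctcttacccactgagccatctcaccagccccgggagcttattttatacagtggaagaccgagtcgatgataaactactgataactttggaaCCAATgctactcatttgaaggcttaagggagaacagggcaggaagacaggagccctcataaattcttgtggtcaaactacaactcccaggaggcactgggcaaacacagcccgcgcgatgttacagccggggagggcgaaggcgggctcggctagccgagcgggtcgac
Mccc1: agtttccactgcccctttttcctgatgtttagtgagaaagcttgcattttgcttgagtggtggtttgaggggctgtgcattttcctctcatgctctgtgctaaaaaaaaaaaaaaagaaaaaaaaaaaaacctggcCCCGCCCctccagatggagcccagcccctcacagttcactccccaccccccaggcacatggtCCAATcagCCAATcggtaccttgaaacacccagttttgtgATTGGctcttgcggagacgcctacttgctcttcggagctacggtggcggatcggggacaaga

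The motifs, searched on either strand, were the GC box CCCGCCC, the NRF1 core (GCGCA and GCGC with N between them), the oestrogen-related receptor element AAGGTCA, the E-box CACGTG and the CCAAT box CCAAT. Of all 32851 mouse windows, 25.6% held the GC box, 4.60% the NRF1 core, 4.72% the receptor element, 7.15% the E-box and 37.4% the CCAAT box. The Mccc2 window held CCAAT boxes from positions -69, -33 and -30, the last pair overlapping, and the only E-box among the members at -9. The Bckdk window held 1 CCAAT box at -119, and the Mccc1 window held a GC box at -114 and CCAAT boxes at -52, -44 and -12. Over the 11 windows of 9 members, 7 held the CCAAT box, 4 the GC box, 1 (Hibadh) the NRF1 core and none the receptor element. These are matches of letters and were not tested as binding sites. Dbt was not matched.

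The targeted gene was read first. Ubr4 had 3.61, 3.80 and 2.73 FPKM with construct 5 and 2.25, 2.58 and 3.07 FPKM with construct 7, against 7.82, 10.3 and 9.09 FPKM in the non-targeting libraries. The mean was 37.3% of the control mean with construct 5 and 29.1% with construct 7, and no siRNA library overlapped a control. The difference on the log2(FPKM + 1) scale was -1.20 for construct 5 (SE 0.129, limma adjusted p = 0.0168) and -1.47 for construct 7 (SE 0.129, limma adjusted p = 0.00882). Permuting 3 against 3 libraries (exact, two-sided) gave p = 0.1 for each construct, the smallest possible, and 0.0238 over 6 against 3. Over 18 alternatives the adjusted p ran from 0.00320 to 0.0956 for construct 5 and from 0.00469 to 0.0976 for construct 7, with the call kept in 14 for each. It was lost when the low genes were kept, without non-targeting replicate 2 or 3, and without construct 5 replicate 1 for construct 5 or construct 7 replicate 2 for construct 7.

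Sequencing depth recovered from the table ran from 29312121 to 45563539 reads per library, the highest being construct 5 replicate 2. Over all tested genes, 569 (5.27%) were called at a limma adjusted p under 0.05 in construct 5 against non-targeting, 504 higher and 65 lower, 6 (0.0556%) in construct 7 against non-targeting and 132 (1.22%) in construct 7 against construct 5. These counts depended on single libraries. With construct 5 replicate 1 left out the first count was 1, with replicate 2 left out 41. It was 356 when construct 7 replicate 1 was left out and 6 when its replicate 3 was, and it was 4, 4 and 2 on leaving out non-targeting replicates 1, 2 and 3. The second count was 0 on leaving out construct 7 replicate 2 or non-targeting replicate 2 or 3, and 1 or 2 on leaving out any construct 5 library or non-targeting replicate 1. The third was 17 and 38 on leaving out construct 5 replicates 1 and 2, 3, 387 and 4 on leaving out construct 7 replicates 1, 2 and 3, and 52 to 55 on leaving out a non-targeting library. The median of all genes lay at 0.13 on the log2 scale for construct 5, 0.02 for construct 7 and -0.10 for construct 7 against construct 5. With the libraries rescaled by median ratios, 78 genes were called for construct 5, 14 higher and 64 lower. The same rescaling gave 79 calls for construct 7 against construct 5, 38 higher and 41 lower, against 16 higher and 116 lower as deposited. Non-targeting replicate 2 was the lowest control in 9 of the 10 members, against 36.5% of all tested genes, and construct 5 replicate 2 was the highest construct 5 library in 10 of 10, against 37.4%.

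In control muscle the 10 genes spanned a wide range of levels. Bckdha was highest, at 85.8 ± 3.47 FPKM (SD, n = 3 here and below), above 95.5% of the tested genes. It was followed by Hibadh at 67.8 ± 4.33 FPKM, Bckdk at 59.1 ± 3.52 FPKM and Ivd at 24.9 ± 5.61 FPKM, with no overlap between neighbours. Mccc2 (13.6 ± 1.40 FPKM), Bckdhb (12.2 ± 1.27 FPKM) and Bcat2 (11.8 ± 2.14 FPKM) formed a group whose neighbouring libraries overlapped. Dbt stood apart at 7.29 ± 1.14 FPKM, while Auh (3.79 ± 0.121 FPKM) and Mccc1 (3.75 ± 0.186 FPKM) overlapped at the low end, Mccc1 being above 41.6% of the tested genes. The low values of Mccc1 and Auh went with long counted transcripts of 10442 and 9580 bases, against 2203 bases for Mccc2. Mccc1 collected 1191, 1195 and 1245 reads in the controls and Mccc2 891, 861 and 1021, so the order by reads was the reverse of the order by FPKM. Counting error was small for every member, the fewest reads being 441 for Mccc2 in construct 5 replicate 1 (95% Poisson interval 401 to 484).

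**Figure D1:**
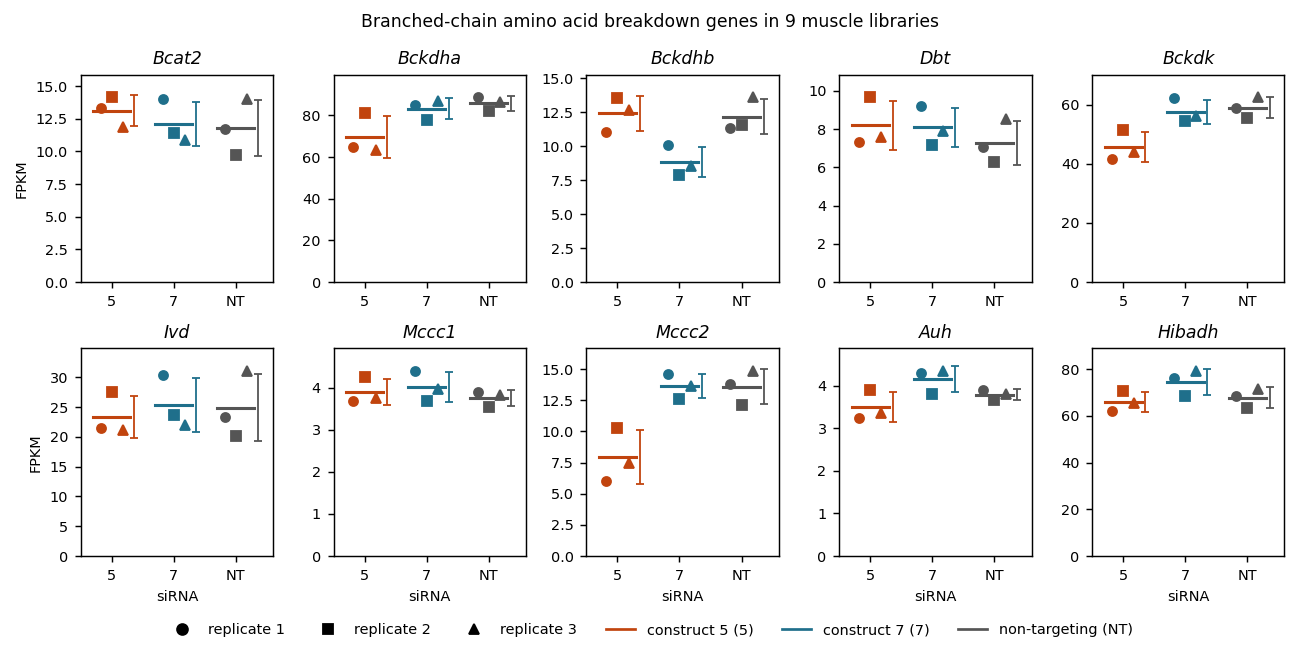
FPKM of the 10 genes (vertical axes, each from 0) in every library of construct 5, construct 7 and the non-targeting control (NT). Points are libraries with the replicate number as symbol, horizontal lines group means and bars 1 SD over 3 libraries. The construct 5 points of Mccc2, Bckdha and Bckdk and the construct 7 points of Bckdhb lie below all control points.

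Of the aminotransferases, Bcat2 overlapped between all groups. Bcat2, the mitochondrial aminotransferase that takes the amino group from all 3 amino acids, had 13.3, 14.2 and 11.8 FPKM with construct 5 and 14.0, 11.4 and 10.8 FPKM with construct 7, against 11.8, 9.71 and 14.0 FPKM in the controls. The control mean carried an SD of 2.14 FPKM. For construct 7 the difference was 0.04 on the log2 scale (SE 0.134, limma adjusted p = 0.970). Its cytosolic counterpart Bcat1 was below the filter and was not tested, at 0.139, 0.132 and 0.127 FPKM with construct 5 and 0.0539, 0.0949 and 0.0872 FPKM with construct 7, against 0.0842, 0.0929 and 0.110 FPKM in the controls. At these low levels every construct 5 library lay above the other 6, with a mean of 139% of the control mean.

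The subunits of the ketoacid dehydrogenase had unlike patterns. Its E1 enzyme joins an alpha subunit, coded by Bckdha, to a beta subunit, coded by Bckdhb. Bckdha had 64.7, 81.2 and 63.2 FPKM with construct 5 and 85.2, 77.6 and 87.1 FPKM with construct 7, against 88.9, 82.1 and 86.3 FPKM in the controls. The construct 5 mean was 81.3% of the control mean, and its highest library lay just under the lowest control. Bckdhb had 11.0, 13.5 and 12.6 FPKM with construct 5 and 10.05, 7.89 and 8.57 FPKM with construct 7, against 11.3, 11.6 and 13.6 FPKM in the controls. Here it was construct 7 that lay below, with a mean of 72.6% of the control mean, while construct 5 overlapped the controls. The ratio of Bckdha to Bckdhb FPKM was 5.62 ± 0.542 with construct 5 and 9.49 ± 0.894 with construct 7, against 7.09 ± 0.766 in the controls.

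Dbt codes for the E2 core that carries the lipoyl arm. It had 7.32, 9.69 and 7.56 FPKM with construct 5 and 9.21, 7.19 and 7.88 FPKM with construct 7, against 7.06, 6.28 and 8.53 FPKM in the controls, with overlap between all groups. The ratio of Bckdhb to Dbt was narrow within construct 7, at 1.09, 1.10 and 1.09, against 1.53 ± 0.138 with construct 5 and 1.68 ± 0.142 in the controls. Bckdhb was the member with the largest difference for construct 7, at -0.42 on the log2 scale (SE 0.109). It had an unadjusted p of 0.00336 but was not called (limma adjusted p = 0.304, 0.229 to 0.745 over 18 alternatives). In construct 7 against construct 5 it differed by -0.45 (SE 0.109, limma adjusted p = 0.0700), which also missed the threshold.

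Bckdk codes for the kinase that phosphorylates E1 alpha and turns the complex off. It had 41.8, 51.6 and 44.0 FPKM with construct 5 and 62.1, 54.5 and 56.2 FPKM with construct 7, against 58.8, 55.7 and 62.7 FPKM in the controls. All construct 5 libraries lay below all others, at a mean of 77.5% of the control mean, whereas construct 7 overlapped the controls at 97.5%. The kinase kept a near constant ratio to its substrate Bckdha, at 0.659 ± 0.0325 with construct 5 and 0.692 ± 0.0430 with construct 7, against 0.689 ± 0.0338 in the controls. The opposing phosphatase Ppm1k, which reactivates the complex, overlapped between groups, at 0.853, 1.65 and 1.04 FPKM with construct 5 and 2.17, 1.60 and 2.11 FPKM with construct 7, against 1.50, 1.49 and 1.86 FPKM in the controls. Bckdk exceeded it 40.8 ± 8.94 times with construct 5 and 29.8 ± 3.85 times with construct 7, against 36.8 ± 2.82 times in the controls.

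Along leucine breakdown, Mccc2 had the largest construct 5 difference of the members. Ivd, isovaleryl-CoA dehydrogenase, acts first and had 21.4, 27.5 and 21.2 FPKM with construct 5 and 30.4, 23.7 and 21.9 FPKM with construct 7, against 23.4, 20.2 and 31.1 FPKM in the controls. It was the most variable member in the controls in absolute terms, and its groups overlapped. The carboxylase acts next. Mccc2 had 6.05, 10.3 and 7.49 FPKM with construct 5 and 14.6, 12.6 and 13.6 FPKM with construct 7, against 13.8, 12.1 and 14.9 FPKM in the controls. Every construct 5 library lay below every other library, at a mean of 7.94 ± 2.15 FPKM or 58.4% of the control mean, while construct 7 averaged 13.6 ± 0.979 FPKM, or 100% of it. Construct 5 replicate 2, the closest to the controls, was also the construct 5 library with the highest value of every other member.

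The partner subunit did not share this. Mccc1, which carries the biotin, had 3.69, 4.26 and 3.76 FPKM with construct 5 and 4.40, 3.69 and 3.96 FPKM with construct 7, against 3.89, 3.54 and 3.82 FPKM in the controls, and all groups overlapped. The ratio of Mccc2 to Mccc1 FPKM was accordingly 1.64, 2.41 and 1.99 with construct 5 and 3.32, 3.42 and 3.45 with construct 7, against 3.55, 3.42 and 3.89 in the controls. Each construct 5 ratio was below each of the others. Mccc2 held rank 8 of the 10 genes with construct 5, overlapping Dbt, and rank 5 with construct 7 and in the controls.

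Below the carboxylase, Auh, the hydratase that also binds AU-rich RNA, had 3.24, 3.90 and 3.37 FPKM with construct 5 and 4.30, 3.80 and 4.35 FPKM with construct 7, against 3.90, 3.66 and 3.81 FPKM in the controls. The construct 5 libraries overlapped the controls through replicate 2. Hibadh, a dehydrogenase of the valine branch, had 62.2, 70.7 and 65.4 FPKM with construct 5 and 76.0, 68.5 and 79.3 FPKM with construct 7, against 68.6, 63.2 and 71.7 FPKM in the controls, with overlap of both constructs with the controls.

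Set against non-targeting, the log2 differences of the members with construct 5 were -0.73 for Mccc2 (SE 0.15), -0.37 for Bckdk (SE 0.093) and -0.30 for Bckdha (SE 0.10). The other 7 lay between -0.09 for Auh and 0.15 for Bcat2. With the threshold used throughout, 1 of 10 members, Mccc2, passed, where 5.27% of all tested genes did, 4.67% being called higher and 0.602% lower. The 3 members with libraries all below the controls compare with 5.19% of tested genes, another 33.0% having all libraries above. Nothing is read from these counts, because Mccc2 was picked in this contrast. It was number 37 by p among the 65 genes called lower and number 7 by size of change. Just inside the threshold on that side were Trappc3 (-0.32) and Znrf2 (-0.33), and just outside Ufsp1 (-0.47) and 1110002L01Rik (-0.41). The Mccc2 difference ran from -0.91 without construct 5 replicate 2 to -0.57 without construct 5 replicate 1. It passed the threshold in 7 of 18 alternatives and missed it, among other settings, without construct 5 replicate 1 or 3, construct 7 replicate 3 or any non-targeting library. After median-ratio scaling the differences were -0.86 for Mccc2, -0.51 for Bckdk and -0.45 for Bckdha, and 8 of 10 members had lower values, against 6 of 10 as deposited. The median of the 10 was -0.06 as deposited and -0.19 after scaling, beside 0.13 for all genes as deposited. The share of all tested genes with lower values after scaling was not counted.

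**Figure D2:**
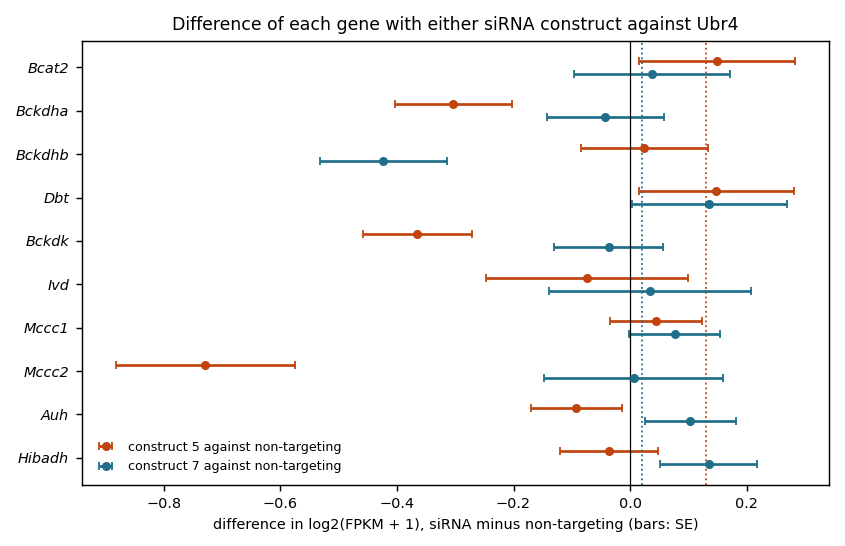
Difference of each of the 10 genes on the log2(FPKM + 1) scale (horizontal axis) for construct 5 and construct 7 against non-targeting, with SE from the limma fit over 9 libraries. The dotted lines mark the median of all tested genes, 0.13 for construct 5 and 0.02 for construct 7. Mccc2, Bckdk and Bckdha lie to the left with construct 5, and Bckdhb with construct 7.

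Construct 7 was compared with the same 3 controls. Its libraries also entered the spread estimate behind the construct 5 call of Mccc2, since the 9 libraries were fitted together. None of the 10 members was called (limma, 1 at an unadjusted p under 0.05, Bckdhb, and 0 called by voom on recovered reads), where 0.0556% of all tested genes were. Mccc2 differed by 0.01 on the log2 scale (SE 0.15, limma adjusted p = 0.998). Its sign depended on the scaling, being -0.02 after median-ratio scaling, and its range over 18 alternatives was -0.07 to 0.07. Bckdk (-0.04, adjusted p = 0.953) and Bckdha (-0.04, adjusted p = 0.947) lay near 0 as well. The other members had values of 0.08 for Mccc1, 0.14 for Dbt, 0.03 for Ivd, 0.10 for Auh and 0.13 for Hibadh, with limma adjusted p from 0.674 for Hibadh to 0.978 for Ivd. By value 7 members were higher and 3 lower, with a median of 0.04 against 0.02 over all genes (6 and 4 after median-ratio scaling). The libraries of 9 members overlapped the controls and those of Bckdhb all lay below, where 6.26% of tested genes had all construct 7 libraries lower. The construct 7 libraries had Ubr4 at 2.25 to 3.07 FPKM and Mccc2 at 12.6 to 14.6 FPKM. A link between these levels was not tested.

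The constructs were also set against each other, in a contrast that reuses the construct 5 libraries in which Mccc2 was picked. Member values are therefore given here as a description, and nothing is read from the member counts. Mccc2 was higher by 0.74 on the log2 scale with construct 7 (SE 0.15), with 3 of 3 construct 7 libraries above the 3 construct 5 libraries, but it missed the threshold (limma adjusted p = 0.0549, 0.0324 to 0.159 over 18 alternatives). It passed without construct 5 replicate 2 (0.0324) or without construct 7 replicate 2 (0.0499). Bckdk differed by 0.33 (SE 0.093, limma adjusted p = 0.0992) and its libraries were also all higher with construct 7. No member was called by limma or by voom, where 1.22% of tested genes were called (0.148% higher and 1.07% lower), and 5 had an unadjusted p under 0.05, Mccc2, Bckdk, Bckdha, Auh and Bckdhb. The first 4 of these had higher values with construct 7 and Bckdhb a lower one. Libraries did not overlap for 3 members, where 25.4% of tested genes had no overlap. Construct 7 was the higher for 2 of them, Mccc2 and Bckdk, where 3.02% of tested genes showed this, and the lower for Bckdhb, where 22.4% did.

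Over the 9 libraries, the genes whose log2(FPKM + 1) was most like that of Mccc2 included Ak3 (Pearson r = 0.992), Bnip1 (0.988), Bckdk (0.983), Tmem143 (0.978), Zadh2 (0.965), Ppp1cc (0.959), Idh3g (0.958), Fam122a (0.954) and Pccb (0.954). The points are 9 libraries in 3 groups, so the 3 low construct 5 libraries weigh heavily in each r. Of 10793 genes set beside Mccc2, Bckdk stood at rank 4 and Pccb, the beta subunit of the propionyl-CoA carboxylase of valine and isoleucine breakdown, at rank 12. Bckdha was at rank 35 (r = 0.933), Auh at rank 164 (0.834) and Hibadh at rank 486 (0.677). The partner Mccc1 was at rank 1490 (0.312), and Bckdhb was last of the members at rank 4037 (-0.24). When each level was taken as a deviation from its group mean, the r with Mccc2 was 0.945 for Bckdk and 0.817 for Mccc1. The r of all 9 other members lay between 0.524 (Bcat2) and 0.945. Construct 5 replicate 2 was the highest of its group in 10 of 10 members, which enters each of these r. The spread of such r over all tested genes was not summarised, so they have no background here. Deviations of Ubr4 had an r of -0.02. At the other end were Plekha2 (-0.98), Btf3 (-0.98), Tmbim4 (-0.98), Ctps (-0.98) and Rps21 (-0.97).

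Ak3, a mitochondrial GTP-dependent kinase of AMP, had 14.1, 20.3 and 16.4 FPKM with construct 5 and 25.4, 23.9 and 25.6 FPKM with construct 7, against 24.0, 24.0 and 27.0 FPKM in the controls. Its construct 5 libraries all lay below the other 6, as those of Mccc2 did. For construct 7 against non-targeting its difference was -0.0014 on the log2 scale (SE 0.116, limma adjusted p = 0.998). Ak3 was picked for its high r with Mccc2 over these same libraries, so both results followed from the choice. Nothing is read from them.

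The wider set of branched-chain enzymes, 21 genes of which 20 were tested, had mostly lower values with construct 5. The counts were 16 of 20 lower and 4 higher, where 2511 of all 10794 tested genes had lower values. The median was -0.12 against 0.13 over all genes. After median-ratio scaling 20 of 20 had lower values. So had 8 of 8 endothelial markers, while 15 of 15 macrophage markers had higher values. The share of all tested genes with lower values after this scaling was not counted. Dld, the E3 subunit that the complex shares with other dehydrogenases, had 105, 135 and 127 FPKM with construct 5 and 143, 134 and 173 FPKM with construct 7, against 147, 140 and 139 FPKM in the controls. Pccb had 22.9, 27.6 and 24.0 FPKM with construct 5 and 34.1, 29.1 and 30.0 FPKM with construct 7, against 29.8, 28.3 and 33.5 FPKM in the controls. Construct 5 thus lay below the controls in all 3 libraries for both genes, but neither was called (limma adjusted p = 0.216 for Dld and 0.0935 for Pccb). The alpha subunit Pcca stood at 88.7% of the control mean with construct 5, and its libraries overlapped the controls. With construct 7, 15 of the 20 had higher values and 5 lower (12 and 8 after median-ratio scaling). Of all 10794 tested genes, 6156 had higher values with construct 7. Of the 20 enzymes, 0 were called with construct 7 (limma, 0 at an unadjusted p under 0.05, 0 by voom). In construct 7 against construct 5, 19 of 20 had higher values, where 2648 of 10794 tested genes did. Here 0 of the 20 were called (limma, 6 at an unadjusted p under 0.05, 0 by voom).

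Other valine and isoleucine enzymes were named by role. Acad8, which dehydrogenates the valine product, stood at 93.1% of the control mean with construct 5 and 99.8% with construct 7. Acadsb, its isoleucine counterpart, stood at 102% with construct 5 and 113% with construct 7. Hibch, the valine hydrolase next to Hibadh, stood at 104% with construct 5 and 118% with construct 7. Aldh6a1, the dehydrogenase that follows Hibadh, stood at 88.0% with construct 5 and 112% with construct 7. None of the 4 was called for either construct, and their limma adjusted p ran from 0.401 to 0.873 with construct 5 and from 0.551 to 0.998 with construct 7.

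**Figure D3:**
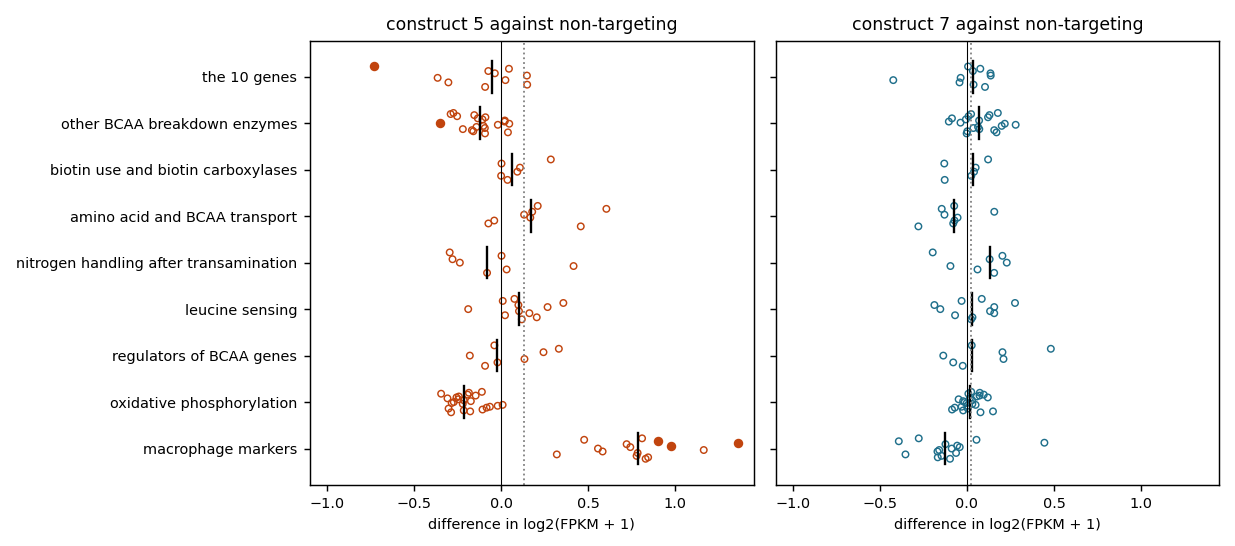
Difference on the log2(FPKM + 1) scale (horizontal axis) of each tested gene of the 10 members and 8 other lists, for construct 5 (left) and construct 7 (right) against non-targeting. Each point is a gene, filled where called, black bars are list medians and the dotted line is the median of all tested genes. Mccc2 is the filled point among the 10 members with construct 5, and no point is filled with construct 7.

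Genes on either side of the pathway were looked at by list. Of 6 genes of biotin use, 0 were called in any contrast (limma, and by voom), and 1 had an unadjusted p under 0.05, with construct 5. Hlcs, which attaches biotin to Mccc1, had 2.04 ± 0.373 FPKM with construct 5 and 1.91 ± 0.116 FPKM with construct 7, against 1.81 ± 0.181 FPKM in the controls. Pcx, another biotin carboxylase, had 13.8 ± 2.61 FPKM with construct 5 and 12.5 ± 2.45 FPKM with construct 7, against 13.6 ± 1.56 FPKM in the controls. Neither gene separated the groups.

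Of 8 genes of amino acid transport, 0 were called in any contrast by limma or voom, and 2 had an unadjusted p under 0.05 with construct 5, 0 with construct 7 and 3 in construct 7 against construct 5. By value 6 of the 8 were higher with construct 5, where 8283 of all 10794 tested genes were, and 7 of the 8 were lower with construct 7, where 4638 of 10794 were. Slc7a5, the leucine importer of the cell surface, had 1.94, 2.48 and 1.36 FPKM with construct 5 and 0.420, 1.08 and 0.720 FPKM with construct 7, against 1.20, 1.04 and 0.529 FPKM in the controls. Construct 5 lay above the other groups in every library at these low levels. The difference was 0.60 for construct 5 (SE 0.191, limma adjusted p = 0.0810) and -0.75 for construct 7 against construct 5 (SE 0.191, limma adjusted p = 0.0778). Slc25a44, the mitochondrial carrier of branched-chain amino acids, had 6.91 ± 0.306 FPKM with construct 5 and 6.91 ± 0.911 FPKM with construct 7, against 7.32 ± 0.294 FPKM in the controls.

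Nitrogen handling, leucine sensing and the regulators gave no call either (7, 11 and 7 genes tested, 0 called in each contrast by limma and by voom, and 0 to 4 genes per list and contrast at an unadjusted p under 0.05). Glul, glutamine synthetase, had 47.3, 33.6 and 30.0 FPKM with construct 5 and 27.0, 24.6 and 24.0 FPKM with construct 7, against 25.8, 25.2 and 30.2 FPKM in the controls. Among the construct 5 libraries only replicate 3 lay within the control range. Gpt2, the mitochondrial alanine aminotransferase, had 39.5 ± 11.4 FPKM with construct 5 and 42.9 ± 14.9 FPKM with construct 7, against 48.3 ± 11.1 FPKM in the controls. Sesn1, a leucine sensor, was at 125% of the control mean with construct 5 and 114% with construct 7, and Klf15, a transcription factor that drives Bcat2 in muscle, at 98.3% with construct 5 and 95.5% with construct 7. Esrra, an oestrogen-related receptor of mitochondrial genes, was at 93.7% with construct 5 and 98.6% with construct 7. Ppargc1a is the coactivator of mitochondrial biogenesis. It had 6.07 ± 0.848 FPKM with construct 5 and 6.81 ± 0.214 FPKM with construct 7, against 4.61 ± 0.504 FPKM in the controls. All 3 libraries of each construct lay above the controls. Among tested genes 33.0% showed this with construct 5 and 10.5% with construct 7. The lowest construct 5 library (5.13 FPKM) was just above the highest control (5.09 FPKM). Neither difference was called (limma adjusted p = 0.0751 with construct 5 and 0.259 with construct 7).

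Other lists differed in value with construct 5 beside the members. A list of 23 genes, of oxidative phosphorylation and citrate synthase (Cs), codes like the members for mitochondrial proteins. With construct 5, 22 of the 23 had lower values, where 2511 of 10794 tested genes did. For 9 of the 23 all construct 5 libraries lay below the controls, where 5.19% of tested genes showed this. The 23 genes had a median of -0.22 and 0 called (limma, 10 at an unadjusted p under 0.05, 0 by voom). Their summed FPKM was 7174, 8861 and 8035 with construct 5 and 9006 to 10073 with construct 7, against 8988 to 9631 in the controls, so construct 5 replicate 1 was lowest and replicate 2 highest of its group, as for Mccc2. Of 15 tested macrophage markers, all 15 had higher values with construct 5, with a median of 0.78 and 3 called. Of all 10794 tested genes, 8283 had higher values with construct 5 and 4.67% were called higher. With construct 7, 13 of the 15 markers had lower values, where 4638 of 10794 tested genes did. Of these markers 0 were called with construct 7 (limma, 1 at an unadjusted p under 0.05, 0 by voom). In construct 7 against construct 5, 3 of the 15 markers were called lower, where 1.07% of tested genes were. Their summed FPKM was 261 to 459 with construct 5 and 125 to 206 with construct 7, against 157 to 229 in the controls, and no marker was at 0 in all libraries. Fibroblast and matrix markers (11 genes) summed to 708 to 1031 FPKM with construct 5 and 427 to 515 FPKM with construct 7, against 552 to 657 FPKM in the controls. All 11 had higher values with construct 5 (2 called by limma) and lower values with construct 7 (0 called). In construct 7 against construct 5 all 11 had lower values and 5 were called, where 1.07% of tested genes were called lower. Muscle fibre markers (14 genes) summed to 73666 to 82175 FPKM with construct 5 and 68061 to 85356 FPKM with construct 7, against 80523 to 85289 FPKM in the controls. The sums hide unlike directions. Of 13 tested, 6 had higher and 7 lower values with each construct, and 0 were called. All construct 5 libraries lay above the controls for 2, Tnnt1 and Tnni1, where 33.0% of tested genes showed this. They lay below for 4, where 5.19% did. Endothelial markers overlapped, at 84.2 to 110 FPKM with construct 5 and 86.0 to 97.4 FPKM with construct 7, against 87.5 to 101 FPKM in the controls. The part of these lists in the member values was not tested.

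**Figure D4:**
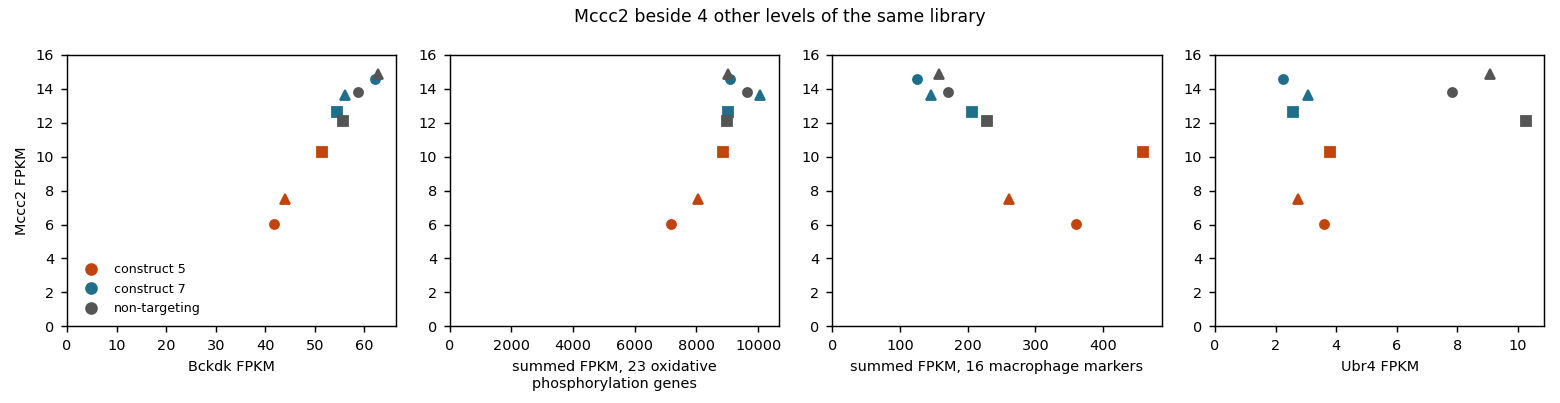
Mccc2 FPKM (vertical axis) in each of 9 libraries beside Bckdk FPKM, the summed FPKM of 23 oxidative phosphorylation genes, the summed FPKM of 16 macrophage markers and Ubr4 FPKM of the same library, with the construct as colour and the replicate number as symbol. The oxidative phosphorylation list includes Cs, citrate synthase. The construct 5 libraries are lowest in Mccc2 and Bckdk. The construct 7 libraries have Ubr4 at 2.25 to 3.07 FPKM and Mccc2 at 12.6 to 14.6 FPKM. A link between these levels was not tested.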

How the data were processed

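Total RNA libraries of 9 tibialis anterior muscles, 3 per group, had been sequenced with standard Illumina protocols per the labels. The authors deposited 1 table of FPKM values per gene. BWA, STAR, HTSeq and the mouse build mm9 are named per the submitters' processing notes, and their versions, their roles and the use of strand are not given in the sources used here. Whether the replicates came from separate animals is not stated, so p-values measure the spread between these libraries.

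Low FPKM values come in steps worth 1 read. With gene lengths from GENCODE M21 (a later build, used for lengths only) these steps gave each library's depth, and 71.9% to 74.2% of values under 50 reads were whole within 0.1 reads. The counting length of a member is the shortest that gave whole reads in all 9 libraries. Reads at the counting length served for the Poisson intervals (95%, counting error only). The reads used for voom were recovered with the GENCODE M21 length of each gene. That length can differ from the counting length, as for Hibadh (10179 against 2226 bases). Mmut, Lars1, Castor1 and Adgre1 were matched under older symbols.

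log2(FPKM + 1), which understates changes of low genes, was fitted by limma (version 3.58.1, R version 4.3.3, eBayes with trend) in 1 model of the 9 libraries, for 10794 genes with a mean of at least 1 FPKM. Genes were called at a Benjamini-Hochberg adjusted p-value under 0.05, adjusted over all tested genes of the contrast. The fit was tried on simulated data with noise drawn separately for each gene and library. Differences shared by a whole library were not simulated. Tables and plots were made in Python 3.11.15.

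The members and lists were chosen with earlier results of these data known. Named genes were Ubr4, the 10 members, listed genes called in a contrast or set by role, the 10 genes most and 5 least like Mccc2 by Pearson r (gene models without a name skipped), and the 2 genes on each side of the threshold; some genes that this rule names are not reported here. Alternatives were 18 in number: a pseudocount of 0.1 or 0.5, quantile normalization, median-ratio scaling, keeping all genes above 0, raising the minimum to 5 FPKM, fitting the 6 libraries of each contrast on their own, adding a replicate block, each of the 9 libraries left out, and, added after seeing the data, voom on recovered reads (10459 genes).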

Additional observations from a re-analysis of the deposited data

How the results depend on the processing

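The counts of genes called moved by more than 1.5 times under several settings. Against 569 for construct 5 against non-targeting, 316 were called with a pseudocount of 0.1, 5 with no filter, 204 with a filter at 5 FPKM, 78 after median-ratio scaling, 82 after quantile normalization, 246 from the 6 libraries alone and 1 to 581 with 1 library left out. Against 6 for construct 7 against non-targeting, 0 were called with no filter, 2 from the 6 libraries alone and 0 to 5 with 1 library left out. Against 132 for construct 7 against construct 5, 10 were called with no filter, 48 with the filter at 5 FPKM, 79 after median-ratio scaling, 60 after quantile normalization, 23 from the 6 libraries alone and 3 to 387 with 1 library left out. Members called with construct 5 numbered 0, against 1, with no filter, after either rescaling and from the 6 libraries alone, and 0 to 1 with 1 library left out. For construct 7 against construct 5 they numbered 0 to 1, and for construct 7 against non-targeting 0 in every alternative. Of 1605 values of named genes under alternatives, 72 had the other sign, none of them called in either fit and none larger than 0.164 on the log2 scale. No filter raised the number of genes tested; other causes were not tested. Mccc1 and Auh had no value with the filter at 5 FPKM.

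The replicate numbers in the labels are shared between groups, but nothing says that they mark a pair, and the correlations of same-numbered deviations from the group means ran from -0.364 to 0.313. With the replicate block 11 genes were called for construct 5 against non-targeting, 7 for construct 7 against non-targeting and 217 for construct 7 against construct 5, and 0 members in each contrast.

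Groups of 3 libraries and depths of 29312121 to 45563539 reads limit small differences, and transcripts such as Bcat1, under the filter, were not tested.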
